A study of Gallus gallus with 8 samples.

Results

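The genes described here encode collagens, laminins and other structural proteins of the extracellular matrix in broiler chicken liver. They were taken by symbol from the authors' deposited table of 1 comparison: every name of the form collagen type and chain, every laminin chain, and 17 glycoproteins, proteoglycans and related genes named singly, with a group mean above 0. This gave 47 genes of the 20170 with a value, namely 24 collagens, 9 laminins and 14 of the genes named singly. All 47 matching rows had a mean above 0, so the filter removed none, and the value nearest to 0 was that of COL22A1 at 0.00349. The RefSeq gene table of another chicken assembly holds 70 symbols of these forms. The 23 that are no member, among them LAMA2, COL15A1, COL18A1, FBN1, BGN and NID2, were not analysed here.

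Livers came from birds labelled male and sampled on day 46. The high density group (treatment D) was raised towards a stocking density of 39.1 kg/m2, or 8 lb/ft2, at the end of growth, and the low density group (treatment A) towards 24.4 kg/m2, or 5 lb/ft2. Each group had 4 RNA sequencing libraries, and each library pooled the RNA of 4 liver samples in equal parts. The table holds 0 columns of values per library, so neither the value of each pool nor the spread between pools can be given, and the depth is unknown. It gives the higher of both group means on a scale its header does not name, and whether that scale is per gene length is unknown. Means therefore serve to describe, select and split genes (at a limit of 1), and not to say which gene is more strongly expressed. Positive log2 fold changes (log2FC) are higher at high density. Defining hepatocyte markers were present, as the tissue label says: albumin, ALB, had a mean of 36025 and apolipoprotein A1, APOA1, one of 12425 in the authors' deposited table.

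Collagens are built as triple helices of chains in which glycine recurs at a fixed step. Types I, III and V form the fibrils of the liver capsule, portal tracts and scars, while type IV forms the sheet of basement membranes, where it is tied to laminin by nidogen and perlecan. In liver, stellate cells and portal fibroblasts make most fibrillar collagen, endothelium and bile duct cells contribute basement membrane, and hepatocytes release fibronectin and vitronectin into plasma. A build-up of fibrillar collagen is the hallmark of liver fibrosis.

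No matrix gene passed an adjusted p of 0.05 in the authors' deposited table, where 0.273% of all 20170 genes did. The smallest adjusted p among the members was 0.78, that of the laminin chain LAMB3. In the unadjusted p-values of the same deposited table, 4 of 47 members (8.51%) were under 0.05, against 5.58% of all genes. The 3 lower ones were POSTN, TNC and ACTA2, where 3.12% of all genes were lower at this threshold. LAMB3 was the 1 higher one, where 2.46% of all genes were higher. All 4 had a mean of at least 1, where they were 12.5% of 32 members, against 6.41% of all genes at that mean. These shares rest on 4 genes, so no trait of the list is read from them.

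Errors are given as an implied standard error (SE), the log2FC divided by the normal quantile of its p-value, which assumes a Wald test and is approximate. By sign alone, 30 of the 47 members were lower and 17 higher at high density (63.8% lower), with a median log2FC of -0.05 and quartiles of -0.24 and 0.16. Over all genes with a value 49.7% were lower, with a median of 0.001. Split at that limit, of the 32 with a deposited mean of at least 1, 24 were lower (75.0%, median -0.07), and of the 15 under 1, 6 were lower (40.0%, median 0.18). Just above that limit lay LAMA4 (1.04) and LAMB3 (1.14), and just under it THBS2 (0.917). Among all 10867 genes with a mean of at least 1, 52.2% were lower (median -0.01). Among all 9303 with a mean under 1, 46.7% were lower (median 0.03). These counts describe the list, and neighbouring chains of 1 fibril or membrane are not separate cases.

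**Figure D1:**
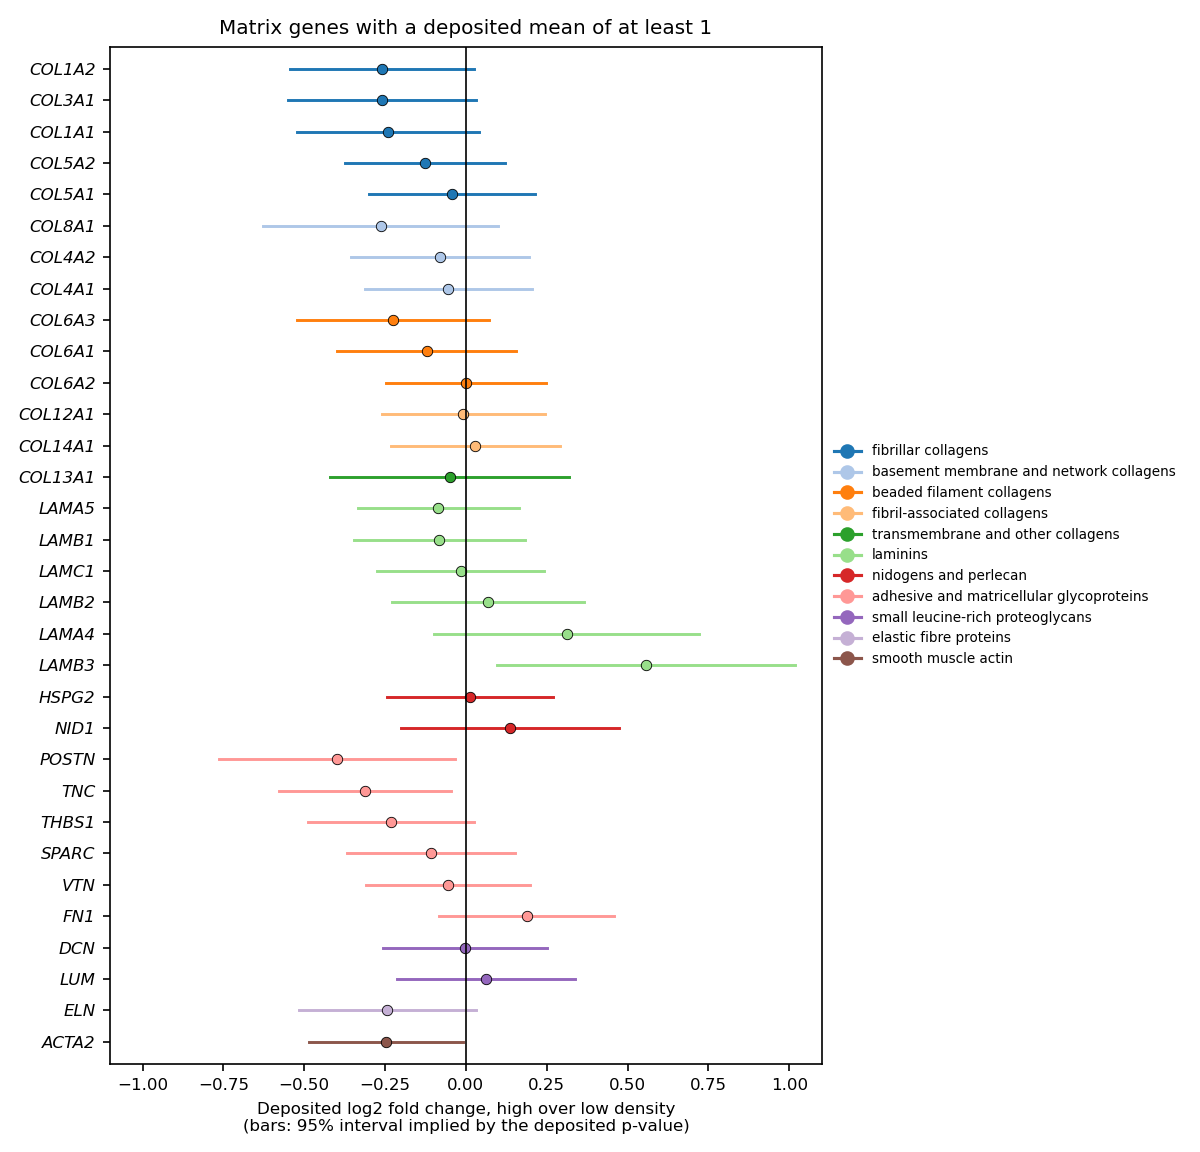
Deposited log2 fold change, high over low density, of the 32 matrix genes with a mean of at least 1, grouped and coloured by class. Bars are 95% intervals implied by the deposited p-values, and those of POSTN, TNC, ACTA2 and LAMB3 are the 4 that do not cross 0.

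The fibrillar collagens with a mean of at least 1 were all lower at high density, by small amounts, and none passed the test. Of all genes at that mean, 52.2% were lower. Type I collagen, the main fibril of scars and capsule, is built from the chains of COL1A1 (ENSGALG00000041555, GRCg6a chromosome 27, 5538288 to 5555467) and COL1A2 (chromosome 2, 23572966 to 23610978). In the authors' deposited table COL1A1 had a mean of 30.3 and a log2FC of -0.24, with an implied SE of 0.14 and an unadjusted p of 0.0929. COL1A2 had a mean of 33.4 and a log2FC of -0.26 (implied SE 0.14, unadjusted p = 0.0725) in the authors' deposited table. The partner chains thus differed by -15.4% and -16.5% from the low density group, with 95% log2 intervals of -0.52 to 0.04 and -0.54 to 0.02 that include 0. COL3A1, whose chain forms the finer type III fibrils, had a mean of 80.2 and a log2FC of -0.26 (implied SE 0.15, unadjusted p = 0.0806) in the authors' deposited table.

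Type V collagen, which sits inside type I fibrils and sets their width, was nearer to 0. COL5A1 had a log2FC of -0.04 (implied SE 0.13) and COL5A2 one of -0.13 (implied SE 0.13) in the authors' deposited table. COL5A2 and COL3A1 (chromosome 7, 618031 to 671774) lie tail to tail and their gene models overlap by 1749 bases. The sources used here do not say whether the counting used strand, so reads from that stretch cannot be told apart. In all, 12 of the 47 members overlap another gene model with a value, LAMA4, LAMB2, SPARC and DCN among them. Cartilage collagen COL2A1 is the sixth fibrillar member, with a mean of 0.0207 and a log2FC of 1.11 (implied SE 1.01) in the authors' deposited table.

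Basement membrane genes, the laminins, nidogen, perlecan and type IV collagen chains, were split evenly, 5 lower and 5 higher among the 10 with a mean of at least 1, with a median log2FC of -0.002. Type IV collagen, the sheet-forming collagen, had log2FC values of -0.05 for COL4A1 (mean 35.6, implied SE 0.13) and -0.08 for COL4A2 (mean 19.8, implied SE 0.14) in the authors' deposited table. The pair lies head to head on chromosome 1, and the models share 281 bases at their starts. NID1, which bridges laminin and type IV collagen, had a log2FC of 0.14 (mean 37.3, implied SE 0.17) in the authors' deposited table. Perlecan, HSPG2, a heparan sulphate proteoglycan, had one of 0.01 (mean 13.6, implied SE 0.13) in the authors' deposited table, with an interval of -0.24 to 0.27. The fibrillar and basement membrane groups differ in their medians, -0.24 and -0.002 at a mean of at least 1, but a test of that difference over libraries was not possible from this table.

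Laminins are trimers of an alpha, a beta and a gamma chain. The broadly made chains had values close to 0 in the authors' deposited table, with log2FC values of -0.09 for LAMA5, -0.08 for LAMB1, 0.07 for LAMB2 and -0.02 for LAMC1, each with an implied SE between 0.13 and 0.15. LAMB4 lies within LAMB1 on the same strand, and LAMB1 overlaps 3 models in all, so reads of the shared bases are uncertain. LAMB4 had a log2FC of 0.18 (mean 0.0296, implied SE 0.63) in the authors' deposited table. LAMA4, the alpha chain of vessel basement membranes, had a log2FC of 0.31 (mean 1.04, implied SE 0.21, unadjusted p = 0.137) in the authors' deposited table.

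LAMB3 (ENSGALG00000001343, chromosome 26, 3114989 to 3135255), a beta chain of the laminin that anchors epithelia, had the highest log2FC of the 9 laminins. It had a mean of 1.14 and a log2FC of 0.56 (1.47-fold, implied SE 0.23, unadjusted p = 0.0178, adjusted p = 0.78) in the authors' deposited table. Its partner alpha chain, LAMA3, had a log2FC of -0.19 (mean 0.604, implied SE 0.22) in the authors' deposited table. The LAMA3 interval of -0.62 to 0.24 includes 0, so whether the 2 measured chains of this trimer differ in sign is not settled. LAMA1, the embryonic alpha chain, had a mean of 0.066 and a log2FC of 0.41 (implied SE 0.44) in the authors' deposited table.

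Among the adhesive and matricellular glycoproteins 5 of 7 were lower, and the 2 lowest log2FC among members with a mean of at least 1 belonged to this class. Periostin, POSTN (ENSGALG00000017046, chromosome 1, 173372443 to 173406135), a protein of remodelling connective tissue, had a mean of 4.76 and a log2FC of -0.40 (1.32-fold lower, implied SE 0.19, unadjusted p = 0.0327, adjusted p = 0.95) in the authors' deposited table. Tenascin C, TNC (ENSGALG00000039990, chromosome 17, 3013995 to 3098173), which is made in wounds and developing tissue, had a mean of 6.32 and a log2FC of -0.31 (1.24-fold lower, implied SE 0.14, unadjusted p = 0.0214, adjusted p = 0.83) in the authors' deposited table. Their 95% intervals, -0.76 to -0.03 and -0.58 to -0.05, run close to 0. Thrombospondin 1, THBS1, an activator of latent TGF-beta, had a log2FC of -0.23 (mean 4.19, implied SE 0.13, unadjusted p = 0.0787) in the authors' deposited table. SPARC, a collagen-binding glycoprotein, had one of -0.11 (mean 99.0, implied SE 0.13) in the authors' deposited table.

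Fibronectin and vitronectin, which hepatocytes release into plasma, had log2FC values of unlike sign, but both intervals include 0. In bulk liver these values are not assigned to a cell type. Fibronectin, FN1, had a mean of 89.0 and a log2FC of 0.19 (implied SE 0.14, unadjusted p = 0.173) in the authors' deposited table. Vitronectin, VTN, had a mean of 2508 and a log2FC of -0.05 (implied SE 0.13, unadjusted p = 0.675) in the authors' deposited table, an interval of -0.31 to 0.20. Its model overlaps 2 others. THBS2 had a log2FC of 0.18 at a mean of 0.917 (implied SE 0.25) in the authors' deposited table.

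The small leucine-rich proteoglycans, which coat collagen fibrils, had values close to 0. Decorin, DCN, had a mean of 87.4 and a log2FC of -0.003 (implied SE 0.13), and lumican, LUM, a mean of 12.7 and one of 0.06 (implied SE 0.14) in the authors' deposited table. Elastin, ELN, the rubber-like protein of arteries, had a log2FC of -0.24 (mean 20.3, implied SE 0.14, unadjusted p = 0.0807) in the authors' deposited table. FBN2, a microfibril protein and the 1 member on chromosome Z, had one of -0.36 at a mean of 0.0286 (implied SE 0.72) in the authors' deposited table.

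Smooth muscle actin, ACTA2 (ENSGALG00000006343, chromosome 6, 20062668 to 20118932), is a marker of activated stellate cells and of vessel walls rather than a matrix protein. It had a mean of 14.9 and a log2FC of -0.25 (1.19-fold lower, implied SE 0.12, unadjusted p = 0.0417, adjusted p = 1.0) in the authors' deposited table. Its model overlaps that of FAS.

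The remaining collagens included further members near the type I and III values and others at 0. For type VI, which forms beaded filaments around cells, the authors' deposited table gave log2FC values of -0.12 for COL6A1 (mean 28.2), -0.001 for COL6A2 (mean 34.1) and -0.23 for COL6A3 (mean 3.8). Their implied SEs were 0.14, 0.13 and 0.15, and the 95% interval of each includes 0. COL8A1, a network collagen of vessel walls, had a log2FC of -0.26 (mean 3.89, implied SE 0.19, unadjusted p = 0.154) in the authors' deposited table. The fibril-associated COL12A1 and COL14A1 had values of -0.01 and 0.03, and the transmembrane COL13A1 one of -0.05, all in the authors' deposited table. COL14A1 was the 1 of 14 collagens with a mean of at least 1 that was higher at high density. Of all genes at that mean, 52.2% were lower. The log2FC of 7 of the 14 lay within 0.1 of 0, and 0 of the 14 had an unadjusted p under 0.05, so their signs are uncertain.

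The collagens with means under 1 gave wide intervals. The largest sizes of log2 fold change in the list, -2.31 for COL22A1 and 1.38 for COL20A1, came at means of 0.00349 and 0.0542 in the authors' deposited table. Their implied SEs were 2.31 and 0.72. COL17A1, the hemidesmosome collagen, had a log2FC of -0.53 (mean 0.307, implied SE 0.30, unadjusted p = 0.079), and COL9A3, a chain of cartilage type IX, one of 0.67 (mean 0.226, implied SE 0.48) in the authors' deposited table. COL8A2 (0.64), COL9A1 (0.50), COL28A1 (0.39), COL25A1 (-0.51) and COL26A1 (-0.24) had deposited means under 1 and implied SEs between 0.44 and 1.02.

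**Figure D2:**
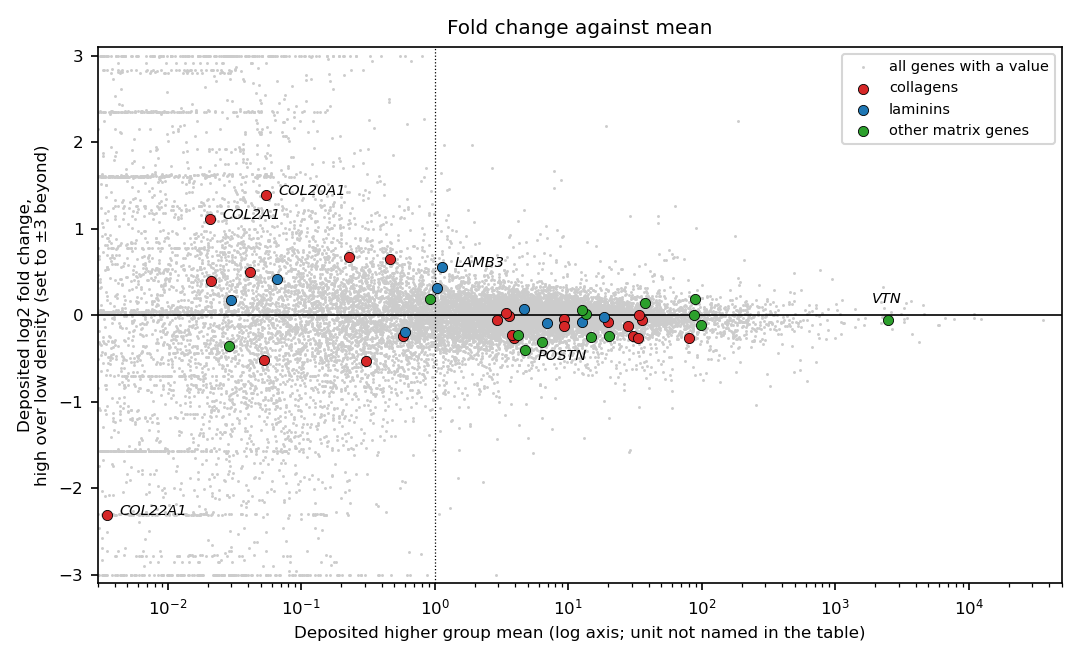
Deposited log2 fold change, high over low density, against the deposited higher group mean (log axis) for all genes with a mean of at least 0.003 (grey) and the 47 matrix genes (coloured). Members with a mean of at least 1, right of the dotted line, lie between -0.40 and 0.56, and those under 1 between -2.31 and 1.38.

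Genes that modify, fold and process collagen did not share the sign of the fibrillar chains as a list. Of 24 with a value, 14 were higher and 10 lower (median 0.02), where 49.7% of all genes were lower, and none passed an adjusted p of 0.05. At an unadjusted p under 0.05 there were 4 of the 24 (16.7%, against 5.58% of all genes). Of these, 2 were lower and 2 higher, where 3.12% and 2.46% of all genes were. At a mean of at least 1 there were 3 of 21 (14.3%, against 6.41% of all genes at that mean). These shares rest on 4 genes, so no trait of the list is read from them. PCOLCE, which enhances removal of the C-terminal propeptide, had a log2FC of -0.40 (mean 16.2, implied SE 0.14, unadjusted p = 0.00425, adjusted p = 0.45) in the authors' deposited table. ADAMTS2, which removes the N-terminal propeptide, had one of -0.39 (mean 3.03, implied SE 0.16, unadjusted p = 0.017, adjusted p = 0.77) in the authors' deposited table. Higher were the folding isomerase FKBP14 at 0.53 (implied SE 0.17, unadjusted p = 0.00222, adjusted p = 0.31) and the prolyl hydroxylase subunit P4HA3 at 0.84 (mean 0.459, implied SE 0.43, unadjusted p = 0.0492) in the authors' deposited table. P4HB (0.02) and PPIB (-0.05), general folding enzymes of the secretory pathway with means of 496 and 415, were close to 0 in the authors' deposited table.

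Matrix receptors showed 13 lower and 8 higher of 21 with a value (median -0.04), where 49.7% of all genes were lower. Of the 21, 0 passed an adjusted p of 0.05 and 1 was under an unadjusted 0.05 (4.76%, against 5.58% of all genes). That was DDR1, a collagen-binding receptor kinase, with a log2FC of 0.28 (mean 4.04, implied SE 0.12, unadjusted p = 0.0208, adjusted p = 0.83) in the authors' deposited table. Its relative DDR2, singled out after its value was seen, had one of -0.57 (mean 4.32, implied SE 0.29, unadjusted p = 0.0508) in the authors' deposited table. The DDR2 model overlaps that of HSD17B7 on the same strand, so reads of the shared bases are uncertain. ITGB1, the beta chain shared by most collagen and laminin integrins, had -0.07 (mean 42.3) and the syndecan SDC2 0.05 (mean 188) in the authors' deposited table.

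Other structural matrix genes outside the member rule were lower in 34 and higher in 18 of 52 cases (median -0.12), with 0 passing an adjusted p of 0.05. Of these, 17 had a mean of at least 1, and 13 of the 17 were lower (median -0.11). At an unadjusted p under 0.05 there were 3 of the 52 (5.77%), each lower, against 5.58% of all genes in either direction and 3.12% lower. That share rests on 3 genes. SMOC1, a SPARC-related glycoprotein, had a log2FC of -0.37 (mean 3.68, implied SE 0.18, unadjusted p = 0.0366) in the authors' deposited table, while MATN1 (-1.57) and CILP2 (-2.49) had deposited means under 0.1. MGP, an inhibitor of calcification, had -0.13 (mean 25.9) and TGFBI -0.04 (mean 22.7) in the authors' deposited table.

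Markers of the cells that make matrix were read beside these values, since in bulk liver fewer cells of a type and less RNA per cell cannot be told apart. Stellate cell, fibroblast and smooth muscle markers outside the member list were lower in 13 and higher in 7 of 20 cases (median -0.11), with 0 passing. Lower were 49.7% of all genes with a value. At an unadjusted p under 0.05 lay 5.58% of all genes in either direction and 3.12% as lower. In this list 2 of the 20 did, both lower. These were the contractile genes MYL9, at -0.43 (mean 16.4, implied SE 0.16, unadjusted p = 0.0067, adjusted p = 0.57), and TAGLN, at -0.34 (mean 7.01, implied SE 0.17, unadjusted p = 0.0439) in the authors' deposited table. RGS5, a pericyte gene, had -0.17 (mean 86.5), smooth muscle myosin MYH11 had -0.04 (mean 23.2), and PDGFRB, the stellate cell receptor for PDGF, had 0.03 (mean 5.18) in the authors' deposited table. NGFR (-0.60) and THY1 (-0.45) had the lowest values of the list, at means under 1, in the authors' deposited table. The part of these cells in the matrix values was not tested.

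Markers of the other cell types gave 15 endothelial genes with 8 lower and 7 higher (median -0.02), 10 cholangiocyte genes with 9 lower (median -0.27), 10 macrophage genes with 8 lower (median -0.07) and 13 hepatocyte genes with 5 lower (median 0.02). Over all genes with a value 49.7% were lower. None of the listed genes passed an adjusted p of 0.05, and the cholangiocyte genes KRT7 (-0.40, unadjusted p = 0.0249) and EPCAM (-0.27, unadjusted p = 0.041) were the 2 of these 4 lists under 0.05 unadjusted in the authors' deposited table. They were 20% of the cholangiocyte list and 0% of the endothelial, macrophage and hepatocyte lists. Of all genes, 5.58% were under 0.05 unadjusted in either direction and 3.12% as lower. The cholangiocyte share rests on 2 genes. EPCAM overlaps other gene models, and SPP1, also on the cholangiocyte list, overlaps PKD2 on the same strand. Whether each listed gene is particular to its cell type in this tissue was not tested. No listed marker found in the table is at 0, and sums per library cannot be given from this table. The part of bile duct cells in the matrix values was not tested either.

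**Figure D3:**
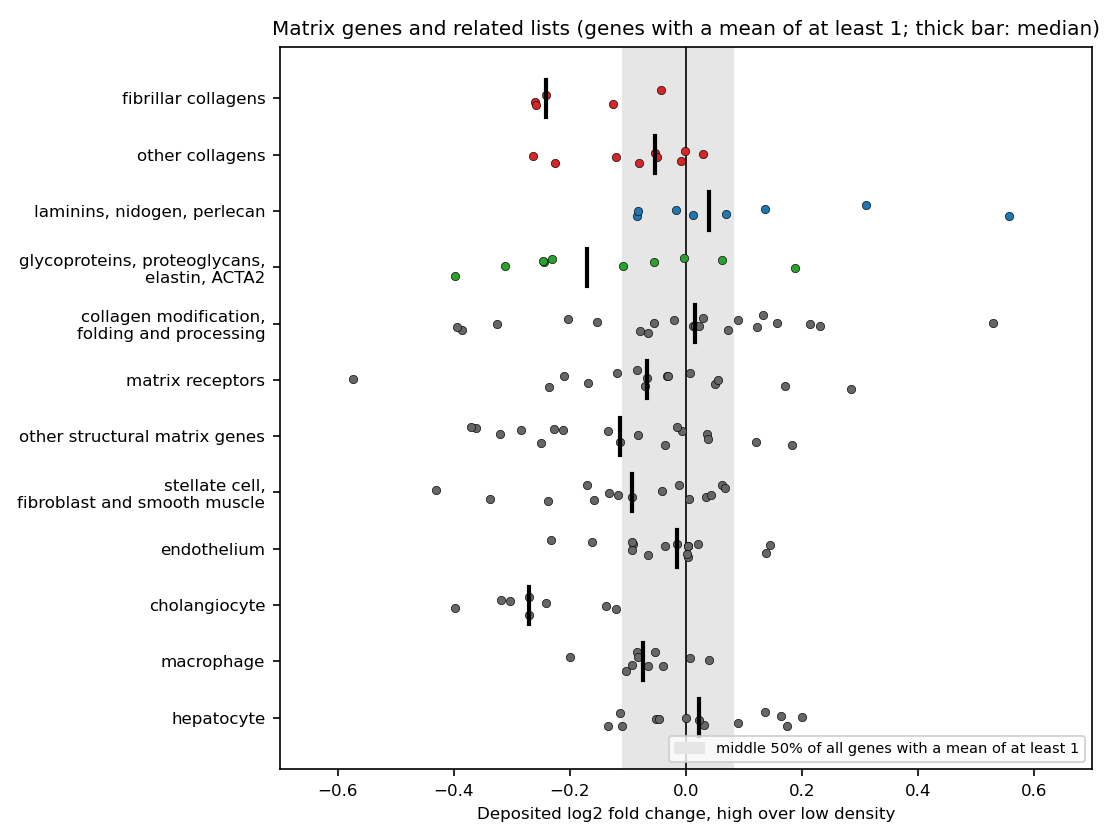
Deposited log2 fold change, high over low density, of each gene with a mean of at least 1 in the matrix groups (coloured) and in related gene and marker lists (grey). Thick bars are medians and the band holds the middle 50% of all genes with a mean of at least 1, from -0.11 to 0.08. Medians of the 5 fibrillar collagens (-0.24), the 10 glycoproteins, proteoglycans, elastin and ACTA2 (-0.17) and the 8 cholangiocyte genes (-0.27) lie left of the band, and that of the 17 other structural matrix genes (-0.11) lies at its left edge, just outside it.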

How the data were processed

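Liver RNA of broilers was sequenced on an Illumina HiSeq, per the labels' protocols. The authors deposited 1 table of 23613 Ensembl genes, with log2 fold changes (D over A), signed fold changes, unadjusted p-values and both Benjamini-Hochberg and Bonferroni adjusted ones. Per the submitters' processing notes the build was GRCg6a, while aligner, counting, normalization and test were not given in the sources used here. In 3443 genes every value is 0, and these were left out. Recomputing the Benjamini-Hochberg adjustment over all 23613 genes gave the deposited adjusted p-values within 2.4e-05. With no values per library the planned count and normalized-value tests did not apply, and genes with a deposited adjusted p-value under 0.05 count as having passed.

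Implied standard errors divide the size of a log2 fold change by the normal quantile belonging to its two-sided deposited p-value, and 95% intervals follow from them. Both assume a Wald test, which the table does not state. Computation used Python 3.11.15, pandas 2.3.3 and scipy 1.17.1, and the code was tested on simulated data. Those data were drawn under the same normal model, so they cannot check the Wald assumption. Members and lists were chosen with earlier results of these data known. Named by rule were members with an unadjusted p under 0.05, the 3 highest means of each class, and the 5 highest and 5 lowest fold changes at a mean of at least 1, and the other members were added so that each is accounted for. In the pathway lists the rule was an unadjusted p under 0.05 and the 2 highest means. The plan set no such rule for the marker lists, where MYL9, TAGLN, KRT7 and EPCAM were named because their unadjusted p was under 0.05. DDR2, RGS5, MYH11, PDGFRB, NGFR and THY1 were chosen after their values were seen. The labels do not say whether the pools of a group came from separate pens, so p-values cannot be read as measuring the spread between pens. At most they rest on the spread between pools. As the test was not given, whether that spread was taken gene by gene or shared across genes is not stated. Implied SEs of the 13 hepatocyte markers, for example, lay close together, between 0.13 and 0.16. The SEs and intervals may therefore not measure each gene's own spread between pools.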

Additional observations from a re-analysis of the deposited data

How the results depend on the processing

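None of the 47 matrix genes was called at a deposited adjusted p of 0.05 or 0.01, at a deposited Bonferroni p of 0.05, or with the adjustment recomputed over the 20170 genes with a result, and 4 had an unadjusted p under 0.05. Of all 20170 genes, 0.273% had a deposited adjusted p under 0.05 and 5.58% an unadjusted p under 0.05. With so small a share called, the absence of called members is not read as a trait of the list. The share of members lower at high density was 63.8%. It was 75.0% among the 32 with a mean of at least 1, and lay between 60.0% and 71.1% for members with a mean of at least 0.1, for those overlapping no other gene model, for collagens and laminins alone, and without FN1, VTN and ACTA2. The median log2 fold change stayed between -0.07 and -0.04 over these 5 choices. As another background, added after seeing the data, the 8471 genes at or above a mean of 1 whose span was no shorter than that of the shortest member had 49.6% lower and a median of 0.001. No paired analysis was possible because the deposited table holds no values per library, and for the same reason leaving out each library was not run. The depth is unknown. The median implied SE was 0.14 among members at or above a mean of 1, and among those under 1 it was 0.63. One SE is not the size that could be detected: COL1A1 (-0.24) and COL3A1 (-0.26) did not reach an unadjusted p of 0.05, and LAMB3 (0.56) did not reach an adjusted one, in the authors' deposited table.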

Other observations

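The log2 fold change of COL22A1, whose mean was 0.00349, was shared within 0.01 by 72 genes of the authors' deposited table, itself included. Of these 72 genes, 65 had a mean under 0.1, as did 9 of the 47 matrix genes.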
